A study of Mus musculus with 6 samples.

Results

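Cells that secrete a great deal, such as the club and goblet cells of an airway and the plasma cells beneath it, depend on a set of genes that fold, check and export proteins in the endoplasmic reticulum (ER). Unfolded protein is sensed by the membrane proteins IRE1, PERK and ATF6, which raise the transcription of chaperones, of the machinery that returns misfolded protein to the cytosol for degradation and, through PERK and the transcription factor ATF4, of genes for amino acid synthesis. Plasma cells and mucus-making cells are known for high activity of the IRE1 and XBP1 branch. The module described here is a list of 38 genes of this response, taken by symbol: 16 chaperones and folding enzymes, 7 sensors and transcription factors, 6 genes of ER-associated degradation, 5 genes of the amino acid and ATF4 response and 4 genes of translocation and transport. A gene was measured where the array annotation paired a probe set with that symbol alone, and where several did, the brightest on average was taken. This gave 37 of the 38 genes, among 19938 named genes in all. Kdelr2, which encodes a receptor that returns escaped ER proteins, had no such probe set and was not analysed here.

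The samples were larger proximal airways dissected from mice aged 9 weeks, on a mixed background of C57BL/6 and 129X1, with 1 array per sample. The 3 mutant samples carried Scgb1a1-cre with floxed alleles of both Foxp1 and Foxp4 (Scgb1a1-cre:Foxp1flox/flox:Foxp4flox/flox), and the 3 control samples carried Scgb1a1-Cre alone, so all 6 had the driver. Scgb1a1 is a club cell gene. In this design the floxed genes are lost only from cells in which the driver was active, while the dissected tissue also holds other cells. All values below are the deposited log2 values, and a difference is the mutant mean minus the control mean on that scale.

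Array medians lay between 5.89 and 5.95, and pairs of arrays correlated across genes at 0.972 to 0.993 (Pearson). Foxp4 was lower on each mutant array than on any control, with 8.41, 7.77 and 8.49 in mutants and 8.77, 9.01 and 8.95 in controls (limma adjusted p = 0.339). The same held for Foxp1, with a difference of -0.23 (limma adjusted p = 0.444). Neither passed the threshold of 0.05, and where their probes lie relative to the floxed sequence was not examined here. The labels number the samples 1 to 3 per genotype without naming the animals, so a p-value here reflects only how far these samples vary and that variation may be technical. The mean of 12 club cell genes was 11.2, 11.3 and 11.3 in mutants and 10.8, 11.0 and 11.1 in controls, and Scgb1a1 itself lay between 12.5 and 12.6 in mutants and between 12.1 and 12.4 in controls. Genes of other tissues read at unequal levels across the arrays. The mean of 8 cardiac muscle genes was 10.1, 11.3 and 8.65 in mutants and 11.6, 9.16 and 9.85 in controls, and the mean of 8 adipocyte genes was 7.44, 8.04 and 7.09 in mutants and 8.96, 6.79 and 7.24 in controls. The 13 measured genes of B and plasma cells averaged 6.12, 7.49 and 6.28 in mutants and 6.50, 9.08 and 9.00 in controls. Controls 2 and 3 therefore stood apart from control 1 in lymphoid genes, and control 1 stood apart from controls 2 and 3 in cardiac and fat genes.

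Some promoters of the module carry short response elements through which genes of this response are known to be induced. RefSeq promoter windows of the GRCm38.p6 build, which run from 250 bases before to 50 bases after a transcription start, were found for 31 of the 38 genes. The ER stress response element was searched as CCAAT, any 9 bases, then CCACG. Its second form was searched as ATTGG, any 1 base, then CCACG. The UPR element was searched as TGACGTGG and the amino acid response element as TGATGNAA, each on both strands. The first element stood in 9 of the 31 promoters, which is 29.0%, while 0.137% of the 27025 genes with a window held it. The second form stood in 2 of the 31 (6.45%, against 0.0444% of all), the UPR element in 2 (6.45%, against 0.714%) and the amino acid response element in 4 (12.9%, against 4.51%). No match overlapped a match of another element. Any of these elements stood in 16 of the 31. The module was listed as genes of this response, so its shares beside those of all genes describe the list and are not a test. Such a match describes letters in a window and is not evidence that a factor was bound.

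The 4 windows below are shown because these genes anchor the chaperone, degradation and amino acid groups described next. Hspa5 is the standard reporter of ER stress, Derl3 had the largest difference in the module, Herpud1 holds 2 kinds of element, and Asns had the smallest p-value. They lie at chr2:34771840-34772139 on the plus strand (Hspa5), chr10:75893148-75893447 on the plus strand (Derl3), chr8:94386179-94386478 on the plus strand (Herpud1) and chr6:7693160-7693459 on the minus strand (Asns). Each is written in the direction of transcription, with the matched elements in capitals. The capitals in Hspa5 and Derl3 are the ER stress response element, on the minus strand in Derl3. Those in Herpud1 are first the amino acid response element on the minus strand and then the second form of the ER stress response element, and those in Asns are the amino acid response element.
Hspa5: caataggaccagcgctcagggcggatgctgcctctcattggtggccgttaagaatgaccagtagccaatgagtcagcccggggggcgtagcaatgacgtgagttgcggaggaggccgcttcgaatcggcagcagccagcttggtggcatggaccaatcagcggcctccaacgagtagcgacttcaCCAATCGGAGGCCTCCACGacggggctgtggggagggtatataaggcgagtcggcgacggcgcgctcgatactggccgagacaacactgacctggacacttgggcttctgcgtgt
Derl3: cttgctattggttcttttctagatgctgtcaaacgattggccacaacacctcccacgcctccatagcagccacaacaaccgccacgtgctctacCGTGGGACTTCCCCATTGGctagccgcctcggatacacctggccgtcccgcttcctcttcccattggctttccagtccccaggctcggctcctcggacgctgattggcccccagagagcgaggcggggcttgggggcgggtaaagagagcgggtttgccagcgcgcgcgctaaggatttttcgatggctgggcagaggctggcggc
Herpud1: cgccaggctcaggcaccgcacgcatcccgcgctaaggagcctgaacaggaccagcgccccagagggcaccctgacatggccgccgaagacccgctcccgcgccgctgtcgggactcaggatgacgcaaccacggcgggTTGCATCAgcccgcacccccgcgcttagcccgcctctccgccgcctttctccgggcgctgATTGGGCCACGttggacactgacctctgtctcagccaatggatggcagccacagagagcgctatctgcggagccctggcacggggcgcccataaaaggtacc
Asns: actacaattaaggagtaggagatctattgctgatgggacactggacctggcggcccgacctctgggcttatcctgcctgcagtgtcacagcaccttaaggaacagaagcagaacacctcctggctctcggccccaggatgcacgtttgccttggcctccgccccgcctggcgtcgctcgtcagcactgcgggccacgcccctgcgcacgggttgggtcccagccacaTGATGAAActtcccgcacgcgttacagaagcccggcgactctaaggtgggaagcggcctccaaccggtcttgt

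**Figure D1:**
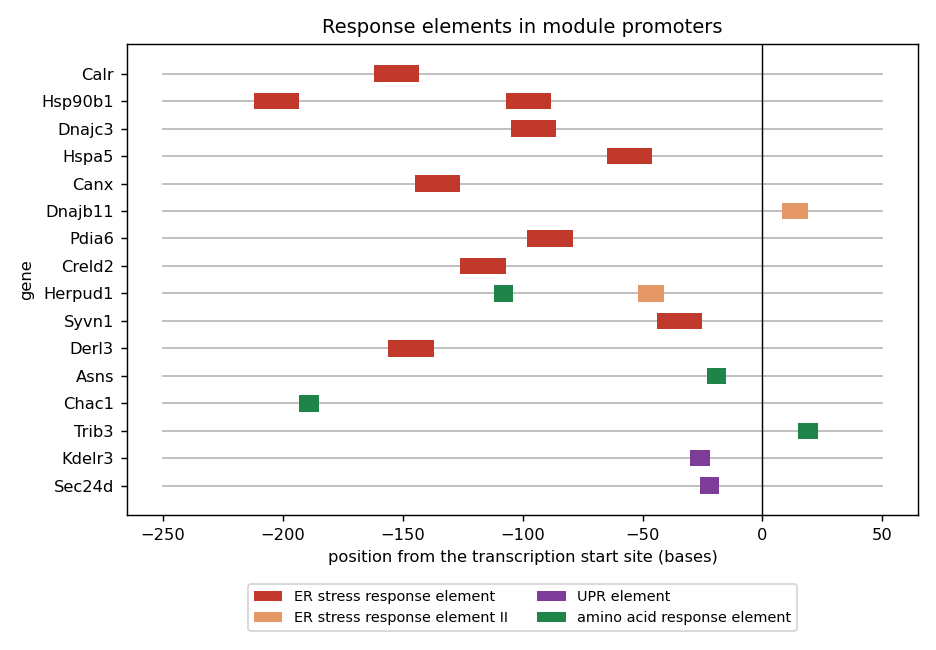
Positions of the searched response elements in the promoter windows of the 16 module genes that held any, in bases from the transcription start (x axis), 1 line per gene. Bars mark matches, coloured by element: the ER stress response element lies before the start in all 9 genes that hold it, and the matches in Dnajb11 and Trib3 lie after the start.

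No gene of the module passed the test between mutant and control airways. limma, fitted over all 19938 genes with Benjamini-Hochberg adjustment, called 0 of the 37 at an adjusted p under 0.05. Of all genes it called 0.266%, with 0.236% higher and 0.0301% lower in mutants. At an unadjusted p under 0.05 there were 2 of the 37, Asns and Edem2, where 10.1% of all genes were under it. The groups did not overlap for 4 of the 37 (Asns, Dnajc3, Kdelr3 and Herpud1), where they did not overlap for 15% of all genes. The median difference of the module was 0.04, beside 0.02 over all genes, and 30 of the 37 differed by less than 0.3 log2 units. As these are whole tissue samples, fewer cells of a type and less RNA per cell cannot be told apart in any value here. By role, the median was 0.11 for chaperones, 0.05 for sensors, -0.45 for degradation genes, 0.03 for amino acid response genes and -0.05 for transport genes. That of the degradation genes was -0.72 without control 1 and -0.10 without controls 2 and 3.

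**Figure D2:**
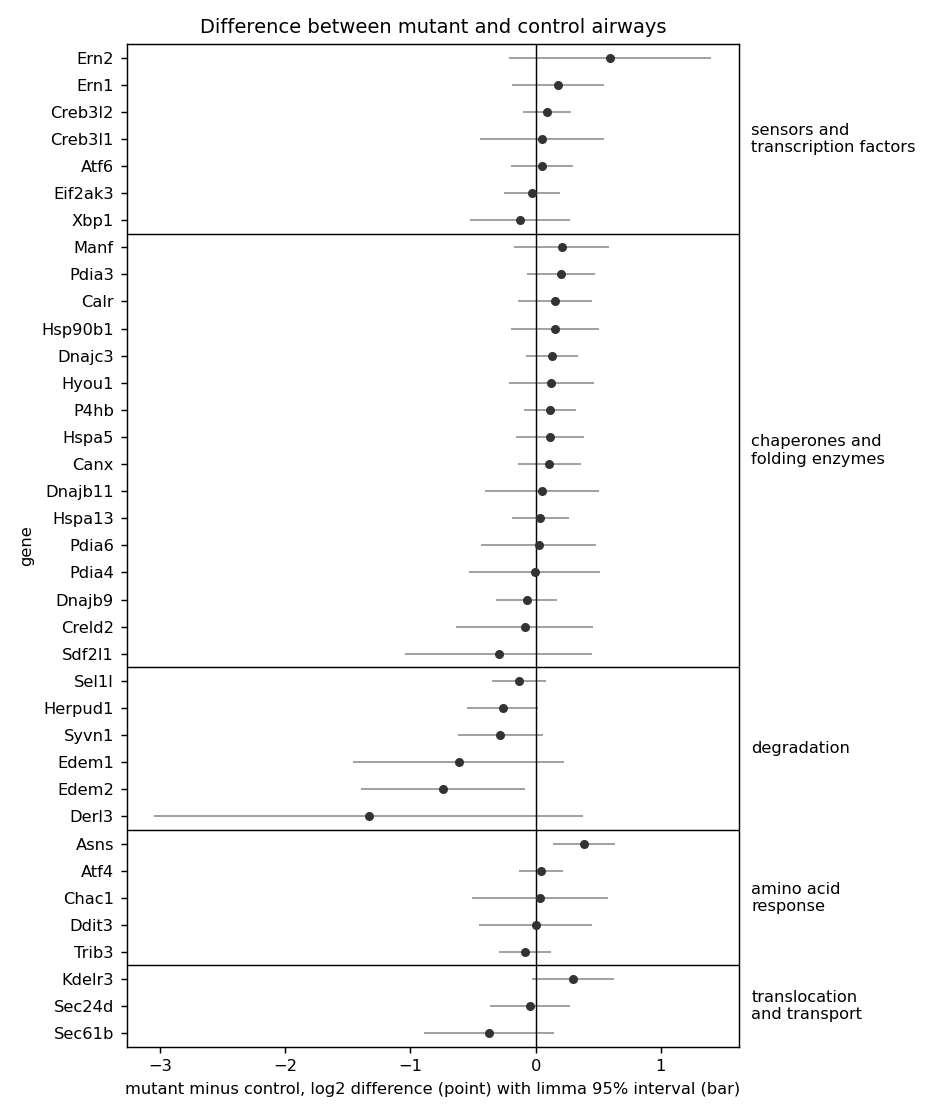
Difference between mutant and control airways for each of the 37 measured genes (x axis, mutant minus control on the log2 scale), as points with limma's unadjusted 95% intervals as bars, grouped by role (n = 3 arrays per group). Chaperones cluster near 0, all 6 degradation genes lie below 0, and Derl3 has the widest interval, from -3.04 to 0.38.

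Among the sensors, the genes of the ubiquitous branches differed little between genotypes. Ern1, which encodes IRE1 alpha, read 8.04, 7.71 and 7.53 in mutants and 7.41, 7.66 and 7.67 in controls. Eif2ak3, which encodes PERK, read 7.42, 7.51 and 7.38 in mutants and 7.46, 7.58 and 7.36 in controls. Atf6, whose product is cut in the Golgi to release a transcription factor, read 9.19, 9.29 and 9.19 in mutants and 8.99, 9.25 and 9.28 in controls. The groups overlapped for all these genes, and their differences were 0.18, -0.03 and 0.05. Xbp1, whose messenger RNA is spliced by IRE1 to encode the active factor, read 9.47, 9.38 and 9.50 in mutants and 9.20, 9.69 and 9.83 in controls. Its difference was -0.13 (SE 0.17, limma adjusted p = 0.884), with control 1 below and controls 2 and 3 above all mutants. The probe set measures the Xbp1 transcript and does not separate its spliced form.

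Ern2, which encodes IRE1 beta, a form largely limited to mucus-making epithelium, had the largest positive difference in the module. It read 7.97, 6.62 and 7.25 in mutants and 6.89, 6.79 and 6.39 in controls, so that mutants 1 and 3 lay above all controls and mutant 2 below 2 of them. The difference was 0.59 (SE 0.34, 95% interval -0.21 to 1.40, limma adjusted p = 0.634). It was 0.25 without mutant 1, where Asns (0.34) and Kdelr3 (0.35) differed by more, and 0.93 without mutant 2. Goblet cell genes were measured on the same arrays: 10 of 11 had a difference above 0, with a median of 0.60, and their mean level was 9.32, 8.40 and 9.18 in mutants and 8.31, 9.12 and 8.52 in controls. The exception was Bpifb1, a secreted airway defence protein, which fell in mutants with a difference of -3.56 (limma adjusted p = 0.0067) and was the 1 called gene of the list. It read 8.84, 8.19 and 9.01 in mutants and 12.42, 12.40 and 11.90 in controls. The list mean includes Bpifb1, which lay above that mean in every control and below it in every mutant. The mean therefore differs less between genotypes than that of the other genes of the list. Agr2, a disulfide isomerase needed for mucin folding, read 12.44, 12.04 and 12.49 in mutants and 10.98, 11.59 and 10.42 in controls without passing (limma adjusted p = 0.211). Mutant 2 was the lowest mutant for Ern2 and for this list, but this was not particular to goblet cell genes. The mean of 8 genes of epithelium in general was 10.40, 9.89 and 10.55 in mutants and 10.05, 10.21 and 9.81 in controls. That of 10 ciliated cell genes was 9.50, 8.83 and 9.63 in mutants and 9.51, 9.695 and 9.335 in controls. The club cell mean was not lowest in mutant 2 among mutants. The part of goblet cell or other epithelial content in the Ern2 values was not tested. Creb3l1 and Creb3l2 encode membrane-bound transcription factors that are released in a similar way to ATF6 and are known for driving secretory capacity. Creb3l1 read 8.69, 8.54 and 8.91 in mutants and 8.24, 8.74 and 9.01 in controls, and Creb3l2 read 8.22, 8.07 and 8.19 in mutants and 8.06, 8.09 and 8.06 in controls. Their differences were 0.05 and 0.09, and the groups overlapped in both.

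The chaperones were close to level with all arrays in the fit. Hspa5, which encodes BiP, the main ER chaperone and a brake on the sensors, read 10.98, 10.98 and 11.22 in mutants and 10.80, 10.97 and 11.07 in controls. The difference of 0.11 (SE 0.11, 95% interval -0.16 to 0.38, limma adjusted p = 0.825) was smaller than the SD of either group (0.14 each). Hsp90b1, the ER member of the HSP90 family, read 11.93, 12.09 and 12.04 in mutants and 11.56, 11.94 and 12.09 in controls, with a difference of 0.16. Over the 16 genes the differences ran from -0.30 for Sdf2l1 to 0.21 for Manf, 12 were above 0, and limma adjusted p ranged from 0.632 to 0.996. None of the 16 intervals reached above 0.59, which is a 1.505-fold difference and belongs to Manf.

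Control 1 was the low array in this group. It was the lowest of the 6 arrays for 13 of the 16 chaperones and for 20 of all 37 genes. The median difference of the chaperones was 0.02 without control 1. It was 0.40 without controls 2 and 3, a setting chosen after seeing the data, so that it depended on which controls entered. Calr, a lectin chaperone that holds glycoproteins, read 10.95, 11.12 and 11.01 in mutants and 10.64, 10.94 and 11.04 in controls. Its membrane-bound partner Canx read 10.63, 10.90 and 10.71 in mutants and 10.56, 10.59 and 10.76 in controls. Their differences were 0.16 and 0.11. The disulfide isomerase genes Pdia3, P4hb, Pdia6 and Pdia4 had differences of 0.20, 0.12, 0.03 and -0.01. A second, dim probe set for Pdia4, with a mean of 4.96, differed by -0.32. Dnajc3, which encodes a co-chaperone of BiP also known as an inhibitor of PERK, was the single chaperone whose groups did not overlap, at 10.79, 10.83 and 10.86 in mutants and 10.57, 10.75 and 10.77 in controls. That difference was 0.13 (SE 0.09, limma adjusted p = 0.689). A second probe set for Dnajc3 is listed with identical values on every array, so it cannot count as a separate measurement.

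The nucleotide exchange and co-chaperone genes had small differences as well. Hyou1, the exchange factor of BiP, differed by 0.12 and Hspa13, an HSP70 relative, by 0.04. Dnajb9 and Dnajb11, J-domain partners of BiP, differed by -0.07 and 0.05. Manf, a secreted ER protein released under stress, read 9.07, 8.89 and 9.34 in mutants and 8.64, 8.98 and 9.05 in controls. Creld2, another secreted stress protein, read 8.64, 8.48 and 8.87 in mutants and 8.26, 8.88 and 9.11 in controls. Groups overlapped for all 6 of these genes. Sdf2l1, a component of the BiP complex, had the widest spread of the chaperones, at 8.38, 8.11 and 8.47 in mutants and 7.87, 8.98 and 8.99 in controls. Control 1 was its lowest array and controls 2 and 3 its highest, which is also the order found for Derl3 and Edem1 below.

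**Figure D3:**
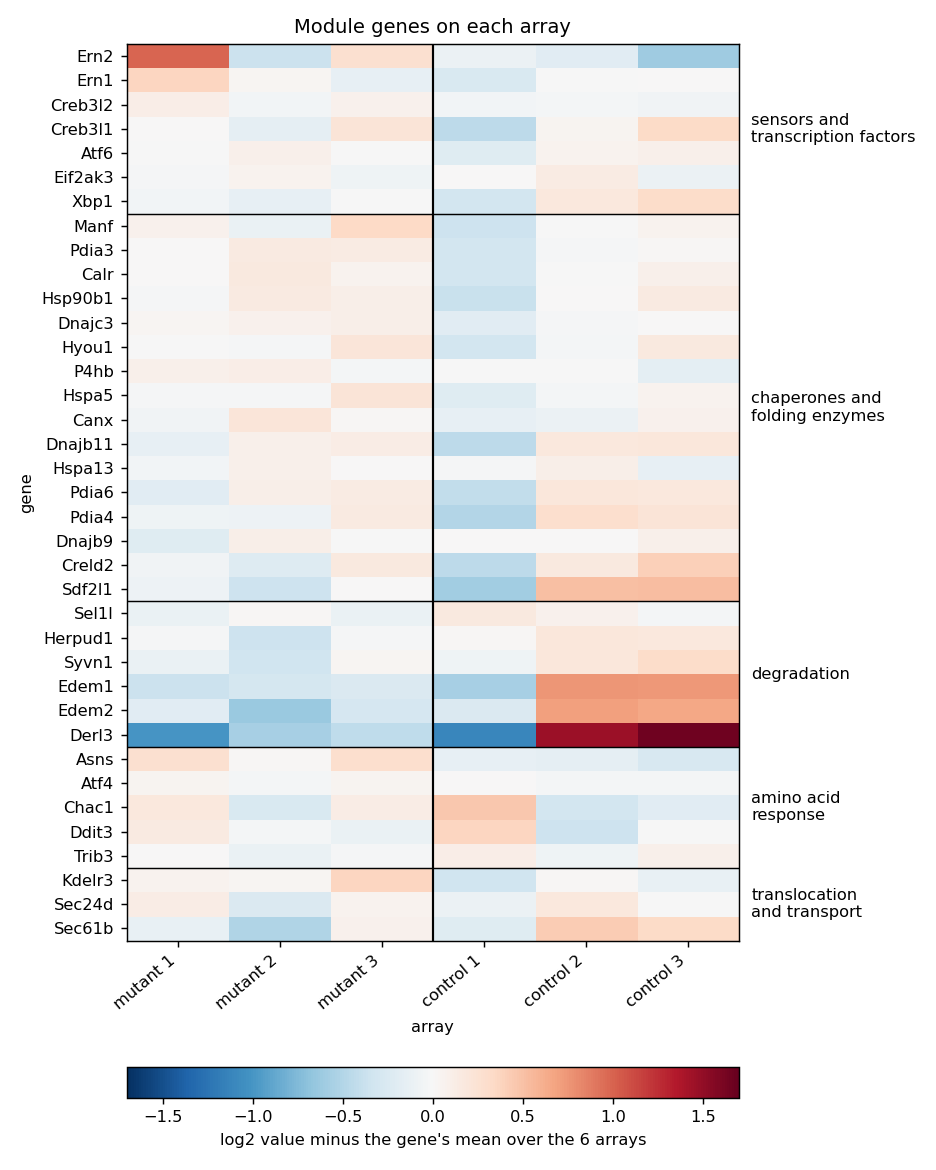
Log2 value of each measured gene on each array minus that gene's mean over the 6 arrays (colour, red above and blue below the mean), with mutants left of controls and genes grouped by role. Controls 2 and 3 are the high arrays for Derl3, Edem1, Edem2 and Sdf2l1, and control 1 is the low array for most chaperones.

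All 6 degradation genes had a difference below 0, where 54.6% of all genes had one above 0, and none passed. Derl3, a channel component of retrotranslocation that is prominent in plasma and other secretory cells, read 6.56, 6.995 and 7.12 in mutants and 6.45, 9.01 and 9.21 in controls. The difference was -1.33 (SE 0.71, 95% interval -3.04 to 0.38, limma adjusted p = 0.610). Edem1, a lectin that takes misfolded glycoproteins out of the folding cycle, read 8.20, 8.27 and 8.32 in mutants and 8.001, 9.33 and 9.30 in controls. For both genes control 1 lay below every mutant, while controls 2 and 3 lay far above all of them. The difference of Edem1 was -0.62 (SE 0.35, limma adjusted p = 0.638). Its relative Edem2 read 8.40, 7.97 and 8.31 in mutants and 8.35, 9.29 and 9.26 in controls, with control 1 among the mutants. The difference was -0.74 (SE 0.27, limma adjusted p = 0.445).

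B and plasma cell genes were also highest in controls 2 and 3. Of 13 measured genes of that list, 12 had a difference below 0, with a median of -1.71, and only the syndecan gene Sdc1, which epithelium also expresses, was above 0 (0.17). Mzb1, an ER protein of antibody-secreting cells, read 6.07, 6.81 and 6.43 in mutants and 6.49, 9.91 and 9.73 in controls. Irf4, a transcription factor of plasma cell differentiation, read 5.03, 6.44 and 5.27 in mutants and 5.91, 8.27 and 8.42 in controls. For both, as for Derl3, Edem1 and Edem2, controls 2 and 3 were the high arrays and control 1 lay far below them. Outside controls 2 and 3, mutant 2 had the highest lymphoid mean, though genes of the list differed in this. Cd79b, a B cell receptor subunit, read 6.59, 9.80 and 7.16 in mutants and 7.66, 10.94 and 10.74 in controls. Tnfrsf17, of the same list, read 5.22, 5.23 and 4.89 in mutants and 5.06, 6.42 and 6.35 in controls, with mutants 1 and 2 nearly level. Edem2 was lowest in mutant 2, and Derl3 and Edem1 were lowest in control 1. Log2 array values have no zero, and the lowest reading of the list, 4.42 for Ms4a1 in mutant 1, lay at the lower quartile of the arrays (4.42 to 4.50). The part of lymphoid cell content in the degradation genes was not tested.

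The comparison of these genes turned on which controls entered it. Without control 1, Derl3 differed by -2.22 (limma adjusted p = 0.0127), Edem1 by -1.05 (adjusted p = 0.0129) and Edem2 by -1.05 (adjusted p = 0.0339). These were the 3 of 37 module genes called by limma in that setting, which called 388 of all 19938 genes, against 53 with all arrays. Without controls 2 and 3, a setting chosen after seeing the data, Derl3 differed by 0.44 (limma adjusted p = 0.808) and Edem1 by 0.26 (adjusted p = 0.739). Over the 16 other settings the limma adjusted p of Derl3 ranged from 0.00426 to 0.893, that of Edem1 from 0.00594 to 0.910 and that of Edem2 from 0.00805 to 0.979. Without both control 1 and mutant 2, also chosen after seeing the data, those 3 genes and Sdf2l1 (difference -0.56) were called by limma. That setting called 963 of all 19938 genes.

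**Figure D4:**
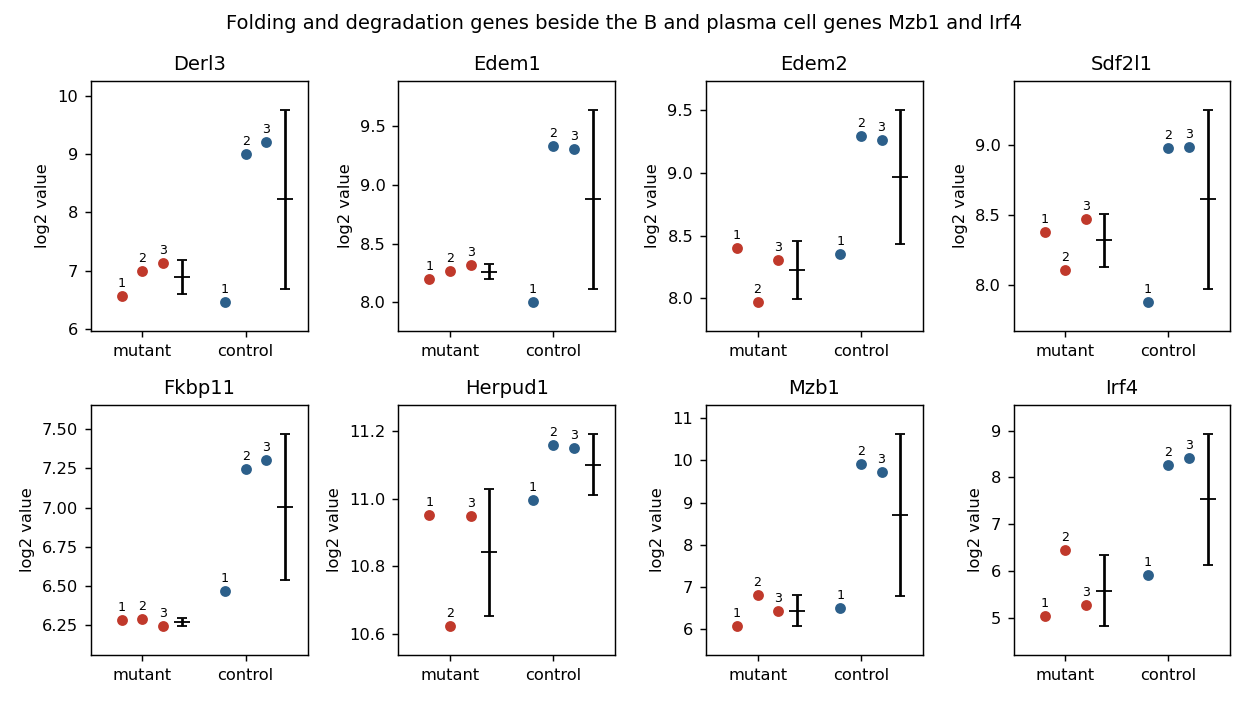
Log2 values (y axis, scaled per panel) of folding and degradation genes and of the B and plasma cell genes Mzb1 and Irf4 on each array, numbered by replicate, with the mean and SD of each group beside the points (n = 3). Controls 2 and 3 lie above every mutant in each panel, and control 1 lies well below them in each panel but that of Herpud1.

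The other degradation genes differed less. Herpud1, which assembles the retrotranslocation complex and whose promoter is printed above, read 10.95, 10.62 and 10.95 in mutants and 11.00, 11.16 and 11.15 in controls. Every mutant lay below every control, but mutants 1 and 3 lay close to control 1, and the difference was -0.26 (SE 0.12, limma adjusted p = 0.535). Groups with all mutants lower were found for 5.64% of all genes. Syvn1, the ubiquitin ligase HRD1, read 9.08, 8.86 and 9.23 in mutants and 9.12, 9.39 and 9.50 in controls, with a difference of -0.28. As for Edem2, control 1 lay among the mutants and controls 2 and 3 above them, and the difference was -0.39 without control 1 and -0.07 without controls 2 and 3. That of Herpud1 was -0.15 without mutant 2. Sel1l, the adaptor of HRD1, read 8.79, 8.92 and 8.78 in mutants and 9.06, 8.97 and 8.86 in controls. Its difference was -0.13 and control 1 was its highest array. Derl3 and Syvn1 hold the ER stress response element, as do Hspa5, Hsp90b1, Calr, Canx, Creld2, Dnajc3 and Pdia6 among the chaperones, whose differences lay between -0.09 and 0.16. The windows of Edem1, Edem2 and Sdf2l1 held none of the searched letters.

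In the amino acid response group, Asns stood apart from the classical stress markers. Asns, which encodes asparagine synthetase, read 8.56, 8.30 and 8.56 in mutants and 8.14, 8.12 and 8.005 in controls. All mutants lay above all controls, as they did for 9.33% of all genes, and the difference was 0.38, which is 1.30-fold (SE 0.10, 95% interval 0.14 to 0.63). It had the smallest p of the module, and its limma adjusted p of 0.301 did not pass. The difference stayed between 0.33 and 0.50 over the 16 other settings, with limma adjusted p from 0.0523 to 0.747. Its promoter holds the amino acid response element 23 to 16 bases before the start.

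The transcription factor Atf4 itself, which is controlled mainly at translation, read 9.86, 9.79 and 9.87 in mutants and 9.82, 9.79 and 9.79 in controls, with a difference of 0.04. Ddit3, which encodes CHOP, a factor of stress-induced cell death, read 8.02, 7.84 and 7.76 in mutants and 8.24, 7.51 and 7.86 in controls, with a difference of 0.00 (SE 0.19). Chac1, a glutathione-degrading enzyme downstream of ATF4, read 6.33, 5.89 and 6.27 in mutants and 6.60, 5.84 and 5.95 in controls. Trib3, a pseudokinase induced by CHOP, read 5.84, 5.73 and 5.81 in mutants and 5.95, 5.77 and 5.92 in controls. Groups overlapped for all 4 genes, and control 1 was the highest array for Ddit3, Chac1 and Trib3. Chac1 and Trib3 hold the amino acid response element too, and differed by 0.03 and -0.09.

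The wider amino acid response was read from a separate list of ATF4-linked genes that are no members of the module. Of 26 measured genes, 0 passed, 5 were under an unadjusted limma p of 0.05, and all 5 of these were higher in mutants with groups that did not overlap. Over all 19938 genes, 1176 were higher under that p, and 9.33% were higher with groups that did not overlap. The median of the 26 was 0.10, with 19 above 0 and 7 below 0. Those with the smallest p among the 7 were Shmt2 (-0.60), Slc7a11 (-1.18) and Slc7a5 (-0.46). Groups overlapped for each of these, and none was under an unadjusted limma p of 0.05. Wars, the cytosolic tryptophanyl-tRNA synthetase, which is also known to be induced by interferon gamma, read 10.3, 10.1 and 10.3 in mutants and 9.34, 9.51 and 9.35 in controls. Cth, the cystathionine gamma-lyase that makes cysteine, read 7.53, 7.86 and 7.55 in mutants and 6.09, 6.58 and 6.62 in controls. Psat1, an enzyme of serine synthesis, read 8.03, 7.74 and 8.06 in mutants and 7.25, 7.58 and 7.37 in controls. In each case the lowest mutant lay above the highest control.

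Wars differed by 0.83, or 1.78-fold (SE 0.11, limma adjusted p = 0.0545), and its limma adjusted p fell under the threshold with median centring, with the lowest 40% of genes left out, with array weights, with an intensity trend and without control 1. Cth differed by 1.22, or 2.33-fold (SE 0.17, limma adjusted p = 0.0701), and passed in limma with the lowest 40% left out, with array weights and without control 1. Both also passed without control 1 and mutant 2. Psat1 differed by 0.54 (SE 0.13, limma adjusted p = 0.252) and passed with array weights. None of these genes passed without control 2 or without control 3.

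**Figure D5:**
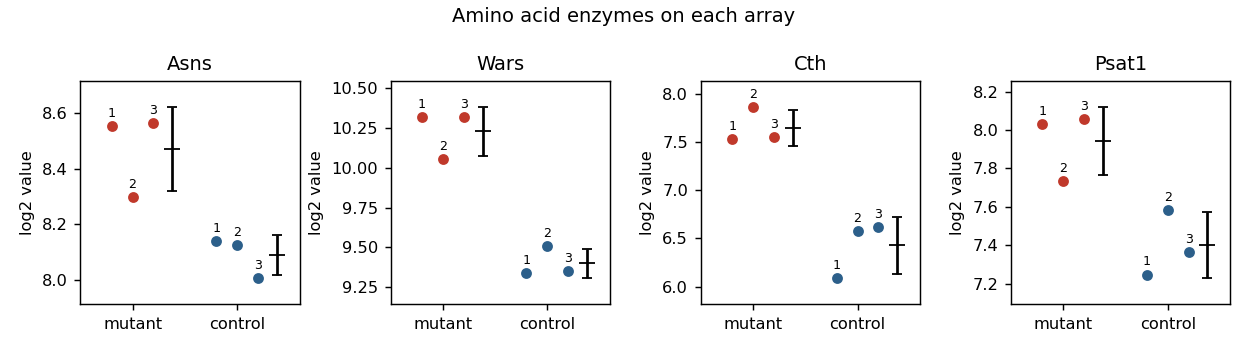
Log2 values (y axis, scaled per panel) of Asns and of the ATF4-linked genes Wars, Cth and Psat1 on each array, numbered by replicate, with the mean and SD of each group beside the points (n = 3). All 3 mutant arrays lie above all 3 control arrays in each panel, with the widest gap between groups for Cth and Wars.

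Translocation and transport genes differed in both directions without passing. Sec61b, a subunit of the channel through which new proteins enter the ER, read 10.5, 10.1 and 10.7 in mutants and 10.4, 11.1 and 11.0 in controls, with a difference of -0.37 (SE 0.22, limma adjusted p = 0.641). The other 2 probe sets that name Sec61b differed by -0.22 and -0.26, and control 2 was the highest array in all 3. Sec24d, a cargo adaptor of the COPII coat, read 8.72, 8.34 and 8.64 in mutants and 8.49, 8.77 and 8.57 in controls, with a difference of -0.05. Kdelr3, a receptor that returns ER proteins from the Golgi, read 6.51, 6.47 and 6.81 in mutants and 6.10, 6.46 and 6.32 in controls. Its mutants all lay above its controls, though mutant 2 and control 2 were nearly level, and the difference was 0.30 (SE 0.14, limma adjusted p = 0.535). Sec24d and Kdelr3 hold the 2 UPR elements of the module. Among 36 other transport genes 0 passed, 23 were above 0 and the median was 0.04, and the 3 with the smallest p were Sar1b, a GTPase of COPII budding (0.37), Kdelr1, the main KDEL receptor (0.30), and Sec31a, a COPII cage subunit (0.21), each with non-overlapping groups.

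Pathway genes outside the module were read in the same way. Of 118 measured in all, limma called 0, beside 0.266% of all genes, and 14 were under an unadjusted p of 0.05, beside 10.1% of all genes. Their median was 0.06. Among 22 further folding genes the smallest p belonged to Fkbp11, a prolyl isomerase known from plasma cells, at 6.28, 6.29 and 6.25 in mutants and 6.47, 7.25 and 7.30 in controls. It differed by -0.73 (SE 0.22, limma adjusted p = 0.355), with controls 2 and 3 as the high arrays again, and by -0.20 without controls 2 and 3. Without control 1 it differed by -1.003 and was called (limma adjusted p = 0.0129). Prdx4, an ER peroxidase, differed by -0.35, and Uggt2, a glucosyltransferase of the glycoprotein checkpoint, by 0.38. Among 14 further sensor genes the smallest p was that of Eif2ak4, the amino acid sensor kinase GCN2 (difference 0.27, limma adjusted p = 0.637), followed by Creb3l3 (0.17) and the heme-regulated kinase gene Eif2ak1 (0.17). Among 20 further degradation genes the median was 0.07, unlike the -0.45 of the 6 in the module, and the smallest p values were those of Dnajb14 (0.27), a membrane J-protein, Ube2j1 (-0.27), an ER ubiquitin-conjugating enzyme, and the ligase gene Rnf5 (0.18).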

How the data were processed

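RNA from dissected airways had been amplified, biotin-labelled and hybridised to Affymetrix Mouse Gene 1.0 ST arrays, per the labels' protocols. The deposited values are log2 values per probe set, for which oligo, RMA and limma are listed, without roles or versions, per the submitters' processing notes. Of 35556 probe sets, 21789 had 1 symbol in the platform annotation, 1621 had several and 12146 had none. Probe sets with several symbols or none were not used.

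The highest-mean probe set was kept for each of 19938 genes, and mutant was compared with control in limma 3.58.1 (R 4.3.3, lmFit and eBayes, 3 arrays per group) with Benjamini-Hochberg adjustment over all genes at a threshold of 0.05. Intervals are unadjusted 95% intervals. The fit was tested on simulated data with independent noise for each gene. Those data held no differences in tissue content between arrays, so the check does not cover such differences. Precision is limited by the number of arrays. The alternatives were another normalization, centring, a filter on dim genes, array weights, a replicate block, other variance models, averaging of probe sets and leaving out arrays. Members and gene lists were chosen with earlier results of these data known, so counts over them are descriptions. Genes outside the module were named by rule as the 3 with the smallest p in each role. In the amino acid role, Shmt2, Slc7a11 and Slc7a5 were added as those with the smallest p among genes lower in mutants. The marker genes and single arrays named were picked to stand beside a result. Promoter windows came from RefSeq (GRCm38.p6), in Python 3.11.15.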

Additional observations from a re-analysis of the deposited data

How the results depend on the processing

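limma called 53 genes in the fit reported here, 291 with array weights (214 higher, 77 lower), 82 with an intensity trend, 0 with a replicate block, 9 to 388 when 1 array was left out and 963 without control 1 and mutant 2 together. Without controls 2 and 3 together it called 0. Leaving out control 1 gave the 388, split into 117 higher and 271 lower, against 47 higher and 6 lower in the fit with all arrays. Both settings that leave out a pair of arrays were chosen after seeing the data. Module genes called numbered 0 to 3 when 1 array was left out and 4 without control 1 and mutant 2. The deviations of same-numbered samples from their group means correlated at 0.136, -0.091 and -0.04. Those of different-numbered samples correlated at -0.204 to 0.176, so same-numbered samples did not stand out. With 3 arrays per group these values cannot decide whether the samples were paired. Without controls 2 and 3, the median was 0.398 for chaperones, 0.246 for sensors and -0.155 for amino acid response genes. That of the amino acid group was 0.202 without control 1 and mutant 2, and -0.113 to 0.186 when 1 array was left out. That of the degradation genes was -0.718 to -0.319 with 1 array left out and -0.096 without controls 2 and 3.

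Of the 37 genes, 16 kept their sign in every other setting that held them and 21 did not. Trib3, 1 of those that kept it, was removed by the filter on dim genes and was followed in 15 of the 16 settings. Without controls 2 and 3, the differences that turned were those of Pdia4 (0.495), Sdf2l1 (0.443), Creld2 (0.403), Xbp1 (0.246), Edem1 (0.261), Derl3 (0.439), Ddit3 (-0.367), Chac1 (-0.435), Sec61b (0.013) and Sec24d (0.076). Without control 1 and mutant 2 they were those of Hsp90b1 (-0.031), Calr (-0.008), Canx (-0.004), Pdia6 (-0.22), Dnajb11 (-0.189), Atf6 (-0.076), Creb3l1 (-0.07) and Sec24d (0.008). Array weights turned Pdia6 (-0.063), Dnajb11 (-0.05), Atf6 (-0.03), Creb3l1 (-0.042) and Sec24d (0.018). Median centring turned Pdia4 (0.028) and Eif2ak3 (0.006), and repeated quantile normalization Pdia4 (0.002). With 1 array left out, differences spanned 0 for Hspa13 (-0.026 to 0.097), Hyou1 (-0.003 to 0.235), Pdia4 (-0.257 to 0.135), Pdia6 (-0.175 to 0.13), Dnajb9 (-0.139 to 0.015), Dnajb11 (-0.156 to 0.16), Creld2 (-0.33 to 0.094), Xbp1 (-0.311 to 0.001), Atf6 (-0.043 to 0.101), Eif2ak3 (-0.084 to 0.03), Creb3l1 (-0.158 to 0.224), Ddit3 (-0.177 to 0.186), Chac1 (-0.113 to 0.269) and Sec24d (-0.121 to 0.069). The cause of these moves was not tested. With 3 arrays per group and a median SE of 0.14 in the module, small differences were not detectable.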
